A study of Caenorhabditis elegans with 9 samples.

Results

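The genes described here are 10 enzymes of pyruvate oxidation and the tricarboxylic acid (TCA) cycle, with the cytosolic counterparts of 3 of its steps, followed through RNA of the Caenorhabditis elegans germ line. They were taken by name, as the rows whose WormBase gene ID carries the symbol pdha-1, cts-1, aco-1, aco-2, idh-1, idha-1, ogdh-1, fum-1, mdh-1 or mdh-2. The table lists 46245 gene IDs, and all 10 passed a filter of a mean of at least 1 FPKM (fragments per kilobase of transcript, scaled to the fragments mapped in the library) that left 8572 genes for testing.

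Poly-A RNA was sequenced from germ lines extruded by decapitation on day 6 of adulthood, in 9 libraries. One group of 3 had been fed bacteria carrying an RNAi construct against iff-1 at 15°C (iff-1 RNAi 15C), the second carried the empty RNAi vector at 20°C (EV 20C) and the third the empty vector at 15°C (EV 15C). Worms of all groups had grown on ordinary bacteria and were moved to their RNAi food and temperature at adulthood, and the series title calls them wild type. The design sets iff-1 RNAi 15C and EV 20C each against EV 15C, so both comparisons use the same 3 control libraries; the iff-1 RNAi 15C group is also set against EV 20C here, which joins a difference in RNAi and a difference in temperature. The iff-1 gene encodes a germline homologue of the translation factor eIF5A, and the series presents its knockdown as an inhibition of germ stem cell proliferation. No label says whether replicates are separate cultures. The p-values therefore set differences between groups against the spread of these libraries, which may be technical.

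In the TCA cycle, the acetyl group made from pyruvate by the pyruvate dehydrogenase complex is joined to oxaloacetate as citrate, carried through isocitrate, 2-oxoglutarate, succinate, fumarate and malate, and oxidised on the way to carbon dioxide. The cycle runs in the mitochondrial matrix and hands its electrons to the respiratory chain, while cytosolic aconitase, isocitrate dehydrogenase and malate dehydrogenase carry out matching reactions outside it. Oocytes are loaded with mitochondria and with maternal mRNA, and transcripts of these enzymes are part of that supply.

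The labels were checked first. The RNAi target iff-1 had 104, 58.0 and 37.4 FPKM in the iff-1 RNAi 15C libraries, against 2442 to 2665 FPKM in the EV 20C libraries and 2510 to 2677 FPKM in the EV 15C libraries. The 14 defining germline genes, led by the eggshell gene cpg-2, were all detected, with summed levels of 9041 to 9500 FPKM in iff-1 RNAi 15C, 10576 to 10932 FPKM in EV 20C and 9454 to 9945 FPKM in EV 15C. Sperm genes were near absent (summed level at most 1.34 FPKM, led by spe-9, with msp-3, msp-10, msp-19, msp-142 and spe-11 at 0 throughout). Depth, estimated from low FPKM values within a set window and so approximate, was 34000000 to 39400000 fragments per library.

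Traces of other tissues were present and uneven. The summed level of 19 intestinal genes was 550, 261 and 287 FPKM in the iff-1 RNAi 15C libraries, 139, 286 and 139 FPKM in EV 20C and 218, 188 and 568 FPKM in EV 15C, so that iff-1 RNAi 15C replicate 1, EV 20C replicate 2 and EV 15C replicate 3 stood above the others of their groups. The highest intestinal gene was spp-5, at 29.5 to 134 FPKM. Muscle genes, led by mlc-2, summed to 148 to 182 FPKM in iff-1 RNAi 15C, 127 to 199 FPKM in EV 20C and 196 to 233 FPKM in EV 15C. Genes of the cuticle and hypodermis, led by col-143, summed to 23.6 to 39.2 FPKM, 6.95 to 17.6 FPKM and 23.2 to 34.6 FPKM in the same order of groups. Pharyngeal genes summed to at most 14.6 FPKM, almost all from tni-4. The neuronal list stood at 231 to 239 FPKM in iff-1 RNAi 15C, 258 to 269 FPKM in EV 20C and 218 to 223 FPKM in EV 15C, nearly all from snb-1, whose product serves vesicle fusion. Of the tested genes, 0 of 14 intestinal genes were called in either comparison with EV 15C; of 12 muscle genes 2 were lower under iff-1 RNAi and 4 at 20°C, and of 7 cuticle genes 5 were lower at 20°C. For iff-1 RNAi 15C against EV 20C, 4 of the 14 intestinal genes, 5 of the 7 cuticle genes and 1 of the 12 muscle genes were higher and none of them lower. Of the 14 germline genes, 2 were higher and 8 lower in that comparison, 3 were higher and 3 lower under iff-1 RNAi against EV 15C, and 8 were higher and 1 lower at 20°C. Of all tested genes, 31% were called under iff-1 RNAi, 28% at 20°C and 48.9% for iff-1 RNAi 15C against EV 20C. Of 4 tested neuronal genes, 2 were higher under iff-1 RNAi and 1 at 20°C, each against EV 15C. Against EV 20C, 2 of them were higher and 1 lower under iff-1 RNAi. The only pharyngeal gene tested was lower at 20°C. The part of these tissues in the results below was not tested. In bulk RNA, fewer cells of a type and less RNA per cell cannot be told apart.

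The enzymes were abundant transcripts with 1 exception. By mean FPKM, 9 of the 10 ranked between 241st (cts-1) and 1024th (ogdh-1) of the 8572 genes, and cytosolic aco-1 ranked 5279th. In EV 15C the order ran from aco-2 at 547 ± 14.9 FPKM (SD, n = 3) through cts-1, mdh-1, mdh-2, idh-1, pdha-1, fum-1, idha-1 and ogdh-1 to aco-1 at 17.1 ± 0.773 FPKM, with no overlap between neighbours in that order. In both other groups cts-1 led, since aco-2 stood lower there. Neighbours that overlapped were cts-1 with mdh-1 and aco-2 with mdh-2 in EV 20C, and mdh-1 with both mdh-2 and aco-2 in iff-1 RNAi 15C. The 10 genes together summed to 3096 ± 48.2 FPKM in iff-1 RNAi 15C, 3145 ± 21.4 FPKM in EV 20C and 3222 ± 47.6 FPKM in EV 15C (SD, n = 3 each). That was 0.296%, 0.313% and 0.312% of all FPKM in the same order of groups. Every sum of both other groups lay below the lowest EV 15C sum (3176 FPKM), the nearest being 3164 FPKM in EV 20C. As a share of all FPKM, iff-1 RNAi 15C also lay wholly below EV 15C, while EV 20C overlapped it. These differences of the sum were not tested.

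**Figure D1:**
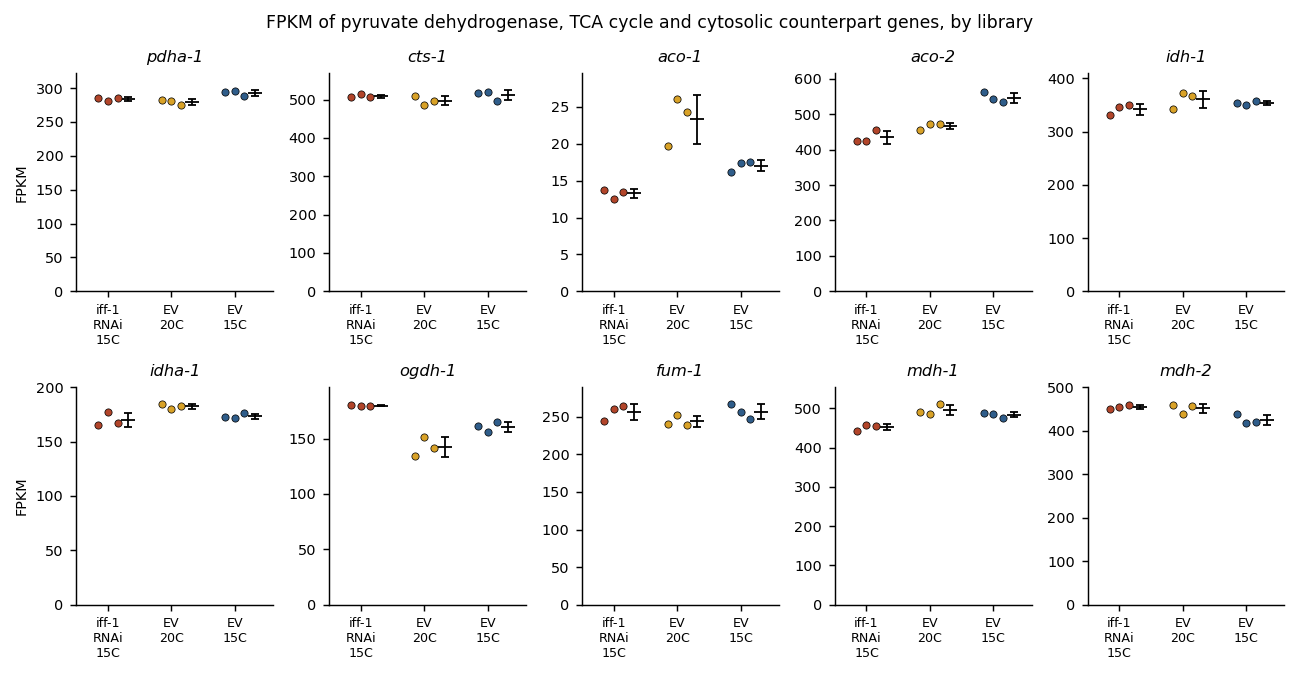
FPKM of each of the 10 genes in every library, with 1 point per library and the mean and SD beside each group of 3; each panel has its own axis, starting at 0. Mitochondrial aco-2 is lower in iff-1 RNAi 15C and EV 20C than in EV 15C, aco-1 is high in EV 20C and low in iff-1 RNAi 15C, and ogdh-1 shows the opposite order to aco-1.

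The aconitases, which turn citrate into isocitrate, showed the largest differences from EV 15C among the 10 genes. Mitochondrial aconitase aco-2 (WBGene00000041, chromosome III, 7973717 to 7977355, plus strand; positions here and below are those of the WBcel235 annotation for that gene ID) had 423, 426 and 456 FPKM in iff-1 RNAi 15C, 457, 473 and 472 FPKM in EV 20C, and 563, 543 and 534 FPKM in EV 15C. Every library of both other groups lay below every EV 15C library. Relative to EV 15C, aco-2 fell under iff-1 RNAi by a log2 value of -0.33 (SE 0.04, limma adjusted p = 0.000613; -20.4% of the mean) and at 20°C by -0.23 (SE 0.04, limma adjusted p = 0.00352; -14.5%). Both calls held in every one of 19 alternative analyses. Set against EV 20C, the iff-1 RNAi value was -0.10 (limma adjusted p = 0.0422), a call lost in 12 of the 19 alternatives, among them leaving out iff-1 RNAi 15C replicate 1 (adjusted p = 0.131) or replicate 2 (0.127), EV 20C replicate 2 (0.102) or replicate 3 (0.117), and EV 15C replicate 2 (0.0611) or replicate 3 (0.0502).

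Cytosolic aconitase aco-1 (WBGene00000040, chromosome X, 11339874 to 11343327, plus strand), the worm homologue of mammalian iron regulatory protein 1, moved in opposite directions in the 2 comparisons with EV 15C. Its level was 13.8, 12.5 and 13.5 FPKM in iff-1 RNAi 15C, 19.7, 26.1 and 24.3 FPKM in EV 20C, and 16.2, 17.4 and 17.6 FPKM in EV 15C. No pair of groups overlapped, with EV 20C highest and iff-1 RNAi 15C lowest. Against EV 20C, the iff-1 RNAi libraries were lower (-43.2% of the mean, log2 fold change -0.76, SE 0.10, limma adjusted p = 0.000445), and that call held in all 19 alternatives.

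Each difference of aco-1 from EV 15C was less secure. At 20°C the estimate was 0.42 on the log2 scale (SE 0.10, limma adjusted p = 0.0142), and leaving out EV 20C replicate 3 (adjusted p = 0.0563) or EV 15C replicate 1 (0.056) ended the call. Under iff-1 RNAi it was -0.34 (SE 0.10, limma adjusted p = 0.0299). That call was lost on leaving out any 1 of the 6 libraries compared, with adjusted p of 0.0632, 0.0982 and 0.0568 without iff-1 RNAi 15C replicates 1, 2 and 3, and 0.0534, 0.089 and 0.0877 without EV 15C replicates 1, 2 and 3. It was also lost with no filter (0.0581) and when scaled without the 10 highest genes (0.0517). In each group the library with most intestinal RNA had the highest aco-1 level. These were iff-1 RNAi 15C replicate 1 (13.8 FPKM), EV 20C replicate 2 (26.1 FPKM) and EV 15C replicate 3 (17.6 FPKM). Between groups the order differed. Intestinal sums were 139 to 286 FPKM in EV 20C, where aco-1 was highest, and 261 to 550 FPKM in iff-1 RNAi 15C, where it was lowest. Among the remaining libraries, iff-1 RNAi 15C replicate 3 had more of both than replicate 2. EV 15C replicate 2 had less intestinal RNA than replicate 1 (188 and 218 FPKM) and more aco-1 (17.4 and 16.2 FPKM). Whether intestinal RNA added to aco-1 was not tested. Without EV 20C replicate 2 the log2 fold change at 20°C was 0.34 and stayed called. The lowest aco-1 level corresponds to an estimated 1400 fragments, for which counting alone gives a coefficient of variation of 2.67%.

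The 2-oxoglutarate dehydrogenase gene ogdh-1 also separated all 3 groups, as aco-1 and aco-2 did. It encodes the E1 subunit, which decarboxylates 2-oxoglutarate (WBGene00020679, chromosome IV, 4696979 to 4704011, minus strand). Its level was 180.1, 179.4 and 179.4 FPKM in iff-1 RNAi 15C, 134, 152 and 141 FPKM in EV 20C, and 161, 156 and 165 FPKM in EV 15C. The iff-1 RNAi libraries lay above both other groups and the EV 20C libraries below both. The spread was uneven too, at 0.411 FPKM (SD) in iff-1 RNAi 15C, 8.93 FPKM in EV 20C and 4.32 FPKM in EV 15C.

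Between iff-1 RNAi 15C and EV 20C, ogdh-1 was 26.3% higher (log2 fold change 0.34, SE 0.04, limma adjusted p = 0.000446), and the call held in all 19 alternatives. Relative to EV 15C it was 11.8% higher under iff-1 RNAi (log2 fold change 0.16, SE 0.04, limma adjusted p = 0.0229) and lower at 20°C (-11.5%, log2 fold change -0.18, SE 0.04, limma adjusted p = 0.0179). Scaling without the 10 highest genes ended both calls (adjusted p = 0.144 under iff-1 RNAi and 0.135 at 20°C). The iff-1 RNAi call was also lost without iff-1 RNAi 15C replicate 1 (0.0676) or 2 (0.0614), and likewise without EV 15C replicate 1 (0.0608) or 2 (0.0805). Leaving out EV 20C replicate 3 (0.0593), or EV 15C replicate 1 (0.0567) or 3 (0.0579), ended the 20°C call.

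Malate dehydrogenases oxidise malate to oxaloacetate and, working in both compartments, shuttle reducing power across the mitochondrial membrane. Cytosolic mdh-1 (WBGene00018491, chromosome V, 6515283 to 6516526, minus strand) had 443, 457 and 456 FPKM in iff-1 RNAi 15C, 491, 486 and 511 FPKM in EV 20C, and 489, 487 and 476 FPKM in EV 15C. The iff-1 RNAi libraries lay below both other groups, which overlapped each other. The level was lower than in EV 20C (-8.90% of the mean, log2 fold change -0.13, SE 0.03, limma adjusted p = 0.00451), a call that held in all 19 alternatives. It was also lower than in EV 15C (-6.61%, log2 fold change -0.10, SE 0.03, limma adjusted p = 0.0282). The call against EV 15C was lost without iff-1 RNAi 15C replicate 1 (adjusted p = 0.0889) or 2 (0.0525) or with EV 15C replicate 1 (0.0876) or 2 (0.084) left out. It was also lost under quantile normalization (log2 fold change -0.05, adjusted p = 0.141), with no variance trend (0.0606) and with a replicate block (0.0563). No call was made at 20°C (0.04, limma adjusted p = 0.369).

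Mitochondrial mdh-2 (WBGene00003162, chromosome III, 6606544 to 6608106, minus strand) differed in the other direction. It had 449.5, 454 and 459.7 FPKM in iff-1 RNAi 15C, 459.2, 439.8 and 457 FPKM in EV 20C, and 439, 419 and 419.5 FPKM in EV 15C. Both other groups lay above EV 15C in every library, by narrow margins. The log2 fold change was 0.09 in each comparison (SE 0.03), called under iff-1 RNAi (limma adjusted p = 0.0364) and not at 20°C (limma adjusted p = 0.0546). The iff-1 RNAi call was lost in 11 of 19 alternatives, including scaling without the 10 highest genes (adjusted p = 0.13), median ratio scaling (0.0883) and leaving out iff-1 RNAi 15C replicate 1, 2 or 3 (0.0645, 0.0844 and 0.081), EV 20C replicate 3 (0.0551) and EV 15C replicate 2 (0.115) or 3 (0.108). At 20°C a call appeared on leaving out EV 20C replicate 2 (0.0376) or, separately, EV 15C replicate 1 (0.0454), and when scaled without the 10 highest genes (0.0349).

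Isocitrate dehydrogenases make 2-oxoglutarate, with NADP in the cytosol for idh-1 and with NAD in the matrix for idha-1, which encodes the catalytic alpha subunit. The gene idh-1 (WBGene00010317, chromosome IV, 9439078 to 9441107, minus strand) ranged over 331 to 350.5 FPKM in iff-1 RNAi 15C, 342 to 373 FPKM in EV 20C and 350.4 to 357 FPKM in EV 15C. Its 95% intervals against EV 15C were -0.13 to 0.04 under iff-1 RNAi and -0.06 to 0.11 at 20°C on the log2 scale, and no difference was called. Against EV 20C the value was -0.07 (limma adjusted p = 0.128), called only without EV 20C replicate 1 (0.0166). The gene idha-1 (WBGene00009664, chromosome I, 8606549 to 8608631, minus strand) had 166, 177 and 167 FPKM in iff-1 RNAi 15C, 184, 179.9 and 183 FPKM in EV 20C, and 172, 172 and 176 FPKM in EV 15C. The EV 20C libraries lay above both other groups. Against EV 20C, iff-1 RNAi libraries were lower by a log2 value of -0.10 (SE 0.03, limma adjusted p = 0.0206), a call lost under median ratio scaling (0.12), under quantile normalization (0.156), and without iff-1 RNAi 15C replicate 1 (0.0666) or 3 (0.0546) or EV 20C replicate 3 (0.0598). Neither comparison of idha-1 with EV 15C was called (adjusted p = 0.496 under iff-1 RNAi and 0.0999 at 20°C).

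Citrate synthase, fumarase and the pyruvate dehydrogenase E1 alpha gene stayed within narrow limits. Citrate synthase cts-1 (WBGene00000833, chromosome III, 10214771 to 10216635, minus strand), which opens the cycle, had 509 ± 4.32 FPKM in iff-1 RNAi 15C, 497 ± 12.3 FPKM in EV 20C and 511 ± 13.3 FPKM in EV 15C (SD, n = 3 each). All pairs of groups overlapped, and the 95% intervals of the log2 fold change against EV 15C ran from -0.07 to 0.06 under iff-1 RNAi and from -0.11 to 0.03 at 20°C. Against EV 20C, cts-1 was called under quantile normalization alone (adjusted p = 0.0216). Fumarase fum-1 (WBGene00001503, chromosome III, 7465605 to 7467640, plus strand), which hydrates fumarate to malate, had 257 ± 10.7 FPKM in iff-1 RNAi 15C, 244 ± 7.28 FPKM in EV 20C and 257 ± 9.90 FPKM in EV 15C. Its intervals were -0.10 to 0.09 under iff-1 RNAi and -0.17 to 0.02 at 20°C, again with overlap throughout.

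The pyruvate dehydrogenase gene pdha-1 (WBGene00011510, chromosome II, 8066285 to 8068184, plus strand) kept a narrow range as well. It had 286, 281 and 286 FPKM in iff-1 RNAi 15C, 283, 281 and 274.5 FPKM in EV 20C, and 294, 296 and 288 FPKM in EV 15C. Both other groups lay just below EV 15C in every library, and neither difference was called (log2 fold change -0.04, limma adjusted p = 0.203 under iff-1 RNAi; -0.07, limma adjusted p = 0.0656 at 20°C). The 20°C difference was called without EV 20C replicate 1 (0.0483), under median ratio scaling (0.0133) and under quantile normalization (0.0172).

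Over the set, 3 to 5 of the 10 genes were called in each comparison, and the median size of change was below that of all tested genes. Under iff-1 RNAi against EV 15C, 2 were higher (ogdh-1, mdh-2) and 3 lower (aco-1, aco-2, mdh-1), which is 5 of 10 where 31% of all tested genes were called (16% higher and 15% lower). At 20°C, 1 was higher (aco-1) and 2 lower (aco-2, ogdh-1), which is 3 of 10 where 28% of all tested genes were called (19.3% higher and 8.69% lower). For iff-1 RNAi 15C against EV 20C, 1 was higher (ogdh-1) and 4 lower (aco-1, aco-2, idha-1, mdh-1), where 48.9% of all tested genes were called (20.5% higher and 28.4% lower). Groups that did not overlap were found for 6 of the 10 genes under iff-1 RNAi (49.7% of all tested genes), for 6 at 20°C (45.4%) and for 5 between iff-1 RNAi 15C and EV 20C (56.5%). The median size of the log2 fold change was 0.07, 0.07 and 0.09 over the 10 genes in these comparisons, against 0.15, 0.14 and 0.21 over all tested genes. Apart from aco-1 (percentile 38.4), the enzymes stood at percentiles 88.1 to 97.2 of level among tested genes. Genes of matching level were not taken as a separate background.

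These counts rest on few libraries. The iff-1 RNAi count of 5 fell to 1 without iff-1 RNAi 15C replicate 1 or 2 or EV 15C replicate 2, to 2 without EV 15C replicate 1, and to 3 without iff-1 RNAi 15C replicate 3 or EV 15C replicate 3. The count at 20°C was 1 without EV 20C replicate 3, and the count against EV 20C was 3 without iff-1 RNAi 15C replicate 1 or EV 20C replicate 3. Scaling moved the split: without the 10 highest genes it was 0 higher and 2 lower under iff-1 RNAi and 2 higher and 1 lower at 20°C. Median ratio scaling gave 1 higher and 3 lower under iff-1 RNAi, and 1 higher and 2 lower for iff-1 RNAi 15C against EV 20C. Quantile normalization gave 2 higher and 2 lower, and 4 higher and 2 lower, in the same comparisons.

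**Figure D2:**
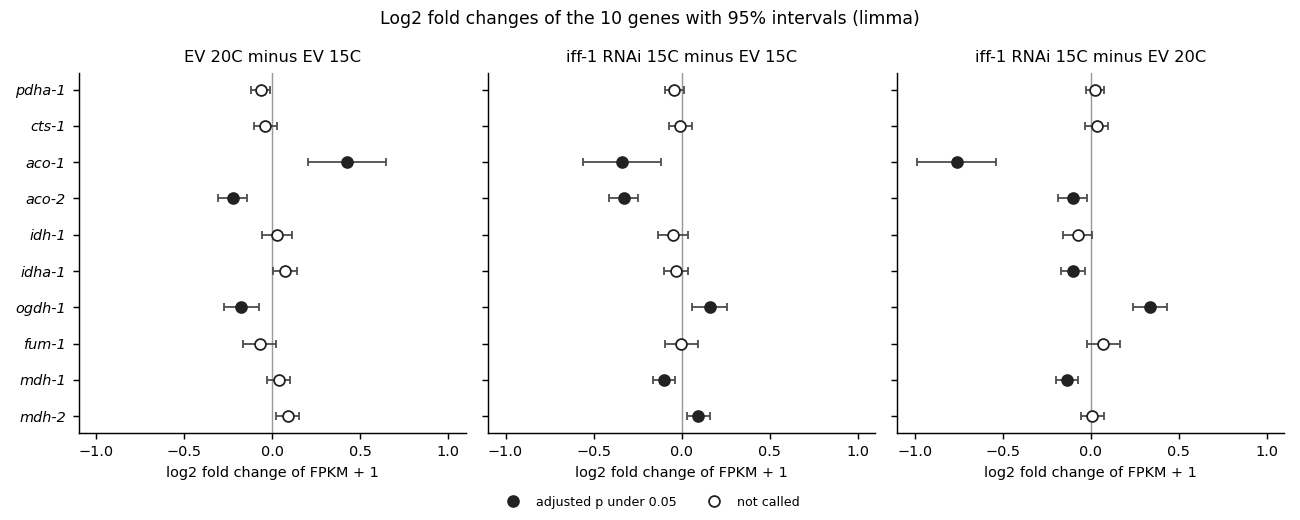
Log2 fold change of FPKM + 1 with its 95% interval for each of the 10 genes in the 3 comparisons; filled points have a limma adjusted p under 0.05. In the middle panel aco-1 (-0.34) and aco-2 (-0.33) lie left of 0 together, whereas in the EV 20C panel they lie on opposite sides (0.42 and -0.23).

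Ratios of FPKM between enzymes of the same step or of neighbouring steps were taken within each library, so that a scaling common to a library cancels. With 3 libraries against 3, an exact two-sided permutation test cannot go below p = 0.1, the value reached where the groups do not overlap. Mitochondrial over cytosolic aconitase (aco-2 over aco-1) was 30.7, 34.0 and 33.8 in iff-1 RNAi 15C, 23.2, 18.1 and 19.4 in EV 20C, and 34.8, 31.1 and 30.4 in EV 15C. The EV 20C libraries stood below both other groups (exact permutation p = 0.1 for each), while iff-1 RNAi 15C and EV 15C overlapped (exact permutation p = 0.9).

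The malate dehydrogenases gave a ratio of mitochondrial to cytosolic transcript (mdh-2 over mdh-1) of 1.01, 0.995 and 1.01 in iff-1 RNAi 15C, 0.936, 0.904 and 0.893 in EV 20C, and 0.897, 0.861 and 0.881 in EV 15C. The iff-1 RNAi libraries stood above both other groups (exact permutation p = 0.1 for each), and EV 20C overlapped EV 15C (p = 0.2). For the isocitrate dehydrogenases (idha-1 over idh-1) the mean was 0.496 ± 0.018 in iff-1 RNAi 15C, 0.507 ± 0.0291 in EV 20C and 0.490 ± 0.00260 in EV 15C (SD, n = 3 each), with all groups overlapping. Citrate synthase over mitochondrial aconitase (cts-1 over aco-2) was 1.2, 1.21 and 1.11 in iff-1 RNAi 15C, 1.12, 1.03 and 1.05 in EV 20C, and 0.918, 0.959 and 0.929 in EV 15C. Both other groups stood above EV 15C (exact permutation p = 0.1 for each).

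**Figure D3:**
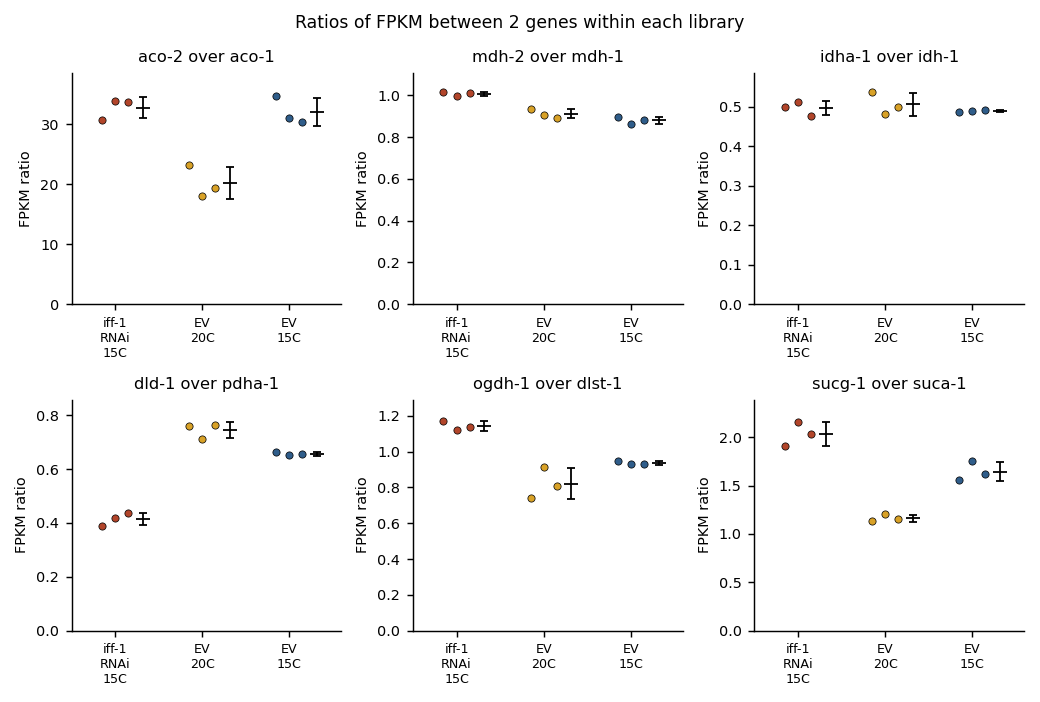
Ratio of FPKM between 2 genes within each library, with 1 point per library and the mean and SD beside each group of 3; each axis starts at 0. The aco-2 over aco-1 ratio is low in EV 20C (18.1 to 23.2), the mdh-2 over mdh-1 ratio is high in iff-1 RNAi 15C (0.995 to 1.01), and dld-1 over pdha-1 is lowest in iff-1 RNAi 15C (0.389 to 0.436).

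The wider pathway was read from 4 lists of 50 genes, of which 48 matched an ID and 44 were tested. Under iff-1 RNAi 4 of the 44 were higher and 22 lower than in EV 15C, and at 20°C 9 were higher and 9 lower. Against EV 20C, iff-1 RNAi libraries had 10 higher and 21 lower. The shares called were 59.1% under iff-1 RNAi, 40.9% at 20°C and 70.5% against EV 20C, where 31%, 28% and 48.9% of all tested genes were called. Of all tested genes, 16% were higher and 15% lower under iff-1 RNAi, and 19.3% higher and 8.69% lower at 20°C; the counts of the lists below stand against the same shares. The iff-1 RNAi count of 26 became 17 without iff-1 RNAi 15C replicate 1 or 2 or EV 15C replicate 1, and the 20°C count of 18 became 11 and 10 with EV 15C replicate 1 or 2 left out. At 20°C the split depended on scaling, with 5 higher and 11 lower under median ratio scaling, 10 and 6 when the 10 highest genes were left out of the scaling, and 7 and 11 with quantile normalization. Leaving the 10 highest genes out of the scaling gave 6 higher and 23 lower for iff-1 RNAi 15C against EV 20C. In the next 5 paragraphs, any loss in the 19 alternatives is given for each call printed with its log2 fold change. Other calls of the same genes, and genes that are only counted, are not covered by it.

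The gene of that pathway that differed most under iff-1 RNAi was dld-1, which encodes dihydrolipoamide dehydrogenase, the E3 subunit shared by the pyruvate and 2-oxoglutarate dehydrogenase complexes. It had 111, 117 and 124 FPKM in iff-1 RNAi 15C, 215, 200 and 210.1 FPKM in EV 20C, and 195, 193 and 189 FPKM in EV 15C. The iff-1 RNAi libraries lay far below both other groups, with a difference of -38.8% from EV 15C (log2 fold change -0.70, SE 0.04, limma adjusted p = 8.78e-05) and -43.5% from EV 20C (-0.82, SE 0.04, limma adjusted p = 1.73e-05). Its level relative to partner subunits differed between groups. The dld-1 over pdha-1 ratio was 0.389, 0.418 and 0.436 in iff-1 RNAi 15C, 0.761, 0.712 and 0.765 in EV 20C, and 0.664, 0.651 and 0.656 in EV 15C. Set against ogdh-1, which was higher under iff-1 RNAi, dld-1 stood at 0.617, 0.655 and 0.694 in iff-1 RNAi 15C, 1.61, 1.32 and 1.49 in EV 20C, and 1.21, 1.23 and 1.15 in EV 15C. No 2 groups overlapped in either ratio (exact permutation p = 0.1 for each pair).

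In the list of pyruvate entry, 4 of 8 tested genes were lower under iff-1 RNAi than in EV 15C and none was higher. Besides dld-1 these were pdhb-1 (E1 beta; log2 fold change -0.18, limma adjusted p = 0.00311), pdp-1 (the phosphatase that switches the complex on; -0.16, limma adjusted p = 0.00646) and dlat-1 (the E2 acetyltransferase; -0.13, limma adjusted p = 0.00813). At 20°C, 2 of 8 were higher and 1 lower: dlat-2, annotated as a second E2 gene, was higher (0.21, limma adjusted p = 0.0118), while dlat-1 was lower (-0.14, limma adjusted p = 0.00624), a call lost when scaled without the 10 highest genes (0.0893). The remaining one, pdp-1, was higher by 0.12 (limma adjusted p = 0.0221), a call lost in 5 alternatives (highest adjusted p = 0.14), among them leaving out EV 20C replicate 3 or EV 15C replicate 1 or 3.

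Of the rest of the cycle, 14 of 15 listed genes were tested; 1 was higher and 8 lower under iff-1 RNAi than in EV 15C, and 5 were higher and 4 lower at 20°C. The gamma subunit of NAD isocitrate dehydrogenase, idhg-1, was the higher one, at 239.6, 227.4 and 238 FPKM in iff-1 RNAi 15C, 193, 181 and 177.5 FPKM in EV 20C, and 197, 193 and 177.5 FPKM in EV 15C (log2 fold change against EV 15C 0.31, SE 0.05, limma adjusted p = 0.00203). Less secure were the lower calls of idhb-1, dlst-1, sucl-2 and suca-1, lost in 11, 9, 8 and 3 of 19 alternatives. Also lower were mitochondrial NADP isocitrate dehydrogenase idh-2 (-0.44, limma adjusted p = 0.00307), mev-1, the cytochrome b subunit of succinate dehydrogenase (-0.40, limma adjusted p = 0.00218), and both flavoprotein genes of that enzyme, sdha-1 (-0.34, limma adjusted p = 0.00582) and sdha-2 (-0.18, limma adjusted p = 0.00942). Succinate dehydrogenase joins the cycle to the respiratory chain. Its subunit genes sdhb-1 (0.08, limma adjusted p = 0.0844) and sdhd-1 (-0.04, limma adjusted p = 0.481) were not called under iff-1 RNAi. At 20°C sdhb-1 (0.13, limma adjusted p = 0.0141) and sdhd-1 (0.17, limma adjusted p = 0.0153) were higher. Lower at 20°C were sdha-2 (-0.22, limma adjusted p = 0.00458) and mev-1 (-0.20, limma adjusted p = 0.0397), and sdha-1 was not called. The 20°C calls of sdhb-1, sdhd-1 and mev-1 were lost in 2, 3 and 10 of 19 alternatives.

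At 20°C ogdh-2, annotated as a second 2-oxoglutarate dehydrogenase E1 gene, had the same order of groups as ogdh-1. It stood at 57.8, 57.7 and 59.4 FPKM in iff-1 RNAi 15C, 40.8, 42.9 and 42.9 FPKM in EV 20C, and 55.9, 53.4 and 52.9 FPKM in EV 15C. It was lower at 20°C (log2 fold change -0.35, SE 0.04, limma adjusted p = 0.00076) and not called under iff-1 RNAi against EV 15C (0.11, limma adjusted p = 0.0535). The succinyl-CoA ligase beta subunits diverged at 20°C: ADP-forming suca-1 was higher (0.36, SE 0.08, limma adjusted p = 0.00992) and GDP-forming sucg-1 lower (-0.14, SE 0.04, limma adjusted p = 0.0255), the call on sucg-1 being lost in 5 alternatives (highest adjusted p = 0.0891), among them without EV 20C replicate 2 or 3 or EV 15C replicate 1 or 2. The sucg-1 over suca-1 ratio was 1.91, 2.16 and 2.04 in iff-1 RNAi 15C, 1.13, 1.2 and 1.16 in EV 20C, and 1.56, 1.76 and 1.62 in EV 15C, with no overlap between groups.

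**Figure D4:**
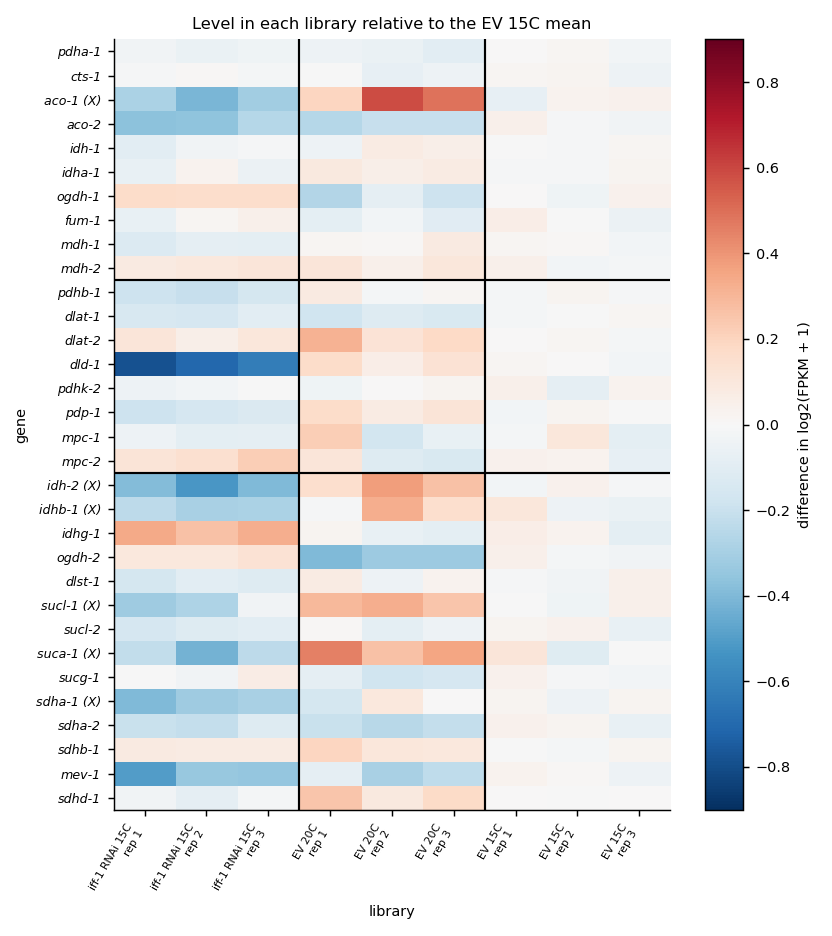
Log2(FPKM + 1) in each library minus the EV 15C mean, for the 10 genes (top block), the rest of the pyruvate entry list (middle) and the tested genes of the rest of the cycle (bottom); X marks genes on chromosome X. In the iff-1 RNAi 15C columns dld-1 is the most strongly lowered gene and idhg-1 and ogdh-1 are raised; in the EV 20C columns aco-1, suca-1 and sucl-1 are raised while ogdh-1 and ogdh-2 are lowered.

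Among 13 tested genes that link the cycle to other pathways, 2 were higher and 7 lower under iff-1 RNAi than in EV 15C, and 1 was higher and 1 lower at 20°C. Glutamate dehydrogenase gdh-1, which feeds 2-oxoglutarate from glutamate, had 619, 635 and 667 FPKM in iff-1 RNAi 15C, 557.5, 551 and 541 FPKM in EV 20C, and 537, 540.0 and 534 FPKM in EV 15C. It was higher under iff-1 RNAi than in EV 15C (log2 fold change 0.25, SE 0.03, limma adjusted p = 0.000943). Pyruvate carboxylase pyc-1, which replenishes oxaloacetate, was lower in both comparisons with EV 15C (-0.15, limma adjusted p = 0.00409 under iff-1 RNAi; -0.29, limma adjusted p = 0.000653 at 20°C). Phosphoenolpyruvate carboxykinase pck-2 (-0.54, limma adjusted p = 0.0114), malic enzyme men-1 (-0.26, limma adjusted p = 0.0069) and aspartate aminotransferase got-2.2 (-0.42, limma adjusted p = 0.00161) were lower under iff-1 RNAi. Less secure were the lower calls of got-2.1 and acly-1 (each lost in 6 of 19 alternatives) and of misc-1 (lost in 5). ATP citrate lyase acly-2, which cleaves exported citrate, was the gene of this list that was higher at 20°C (0.21, limma adjusted p = 0.00318).

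The chromosome of the genes divided the pathway, a split made after the values were seen. Of the 10 enzymes only aco-1 lies on chromosome X. Over all 54 tested pathway genes, 11 are X-linked, among them aco-1, idh-2, idhb-1, sucl-1, suca-1, sdha-1, got-2.2, acly-1, pcca-1 and pccb-1. Under iff-1 RNAi against EV 15C, 0 of these were higher and 8 lower with a median log2 fold change of -0.29, and all 11 estimates were below 0. The 43 autosomal genes had 6 higher and 17 lower, with a median of -0.04. At 20°C 4 X-linked pathway genes were higher (aco-1, suca-1, sucl-1, idh-2) and 1 lower (pccb-1), with a median of 0.16, and autosomal ones had 6 higher and 10 lower with a median of -0.04. Of those calls at 20°C, that of idh-2 was lost in 6 of the 19 alternatives (highest adjusted p = 0.0877), that of sucl-1 in 3 (0.0688) and that of pccb-1 in 6 (0.0872). For iff-1 RNAi 15C against EV 20C 9 of 11 were lower, with a median of -0.50, and 9 were called lower in every alternative.

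The same direction was present over chromosome X as a whole, so that it is not particular to the pathway. Of 915 tested X-linked genes, 2.4% were higher and 22.3% lower under iff-1 RNAi against EV 15C, where autosomal genes had 17.6% higher and 14.2% lower. At 20°C 25.5% of X-linked genes were higher and 5.14% lower, where autosomal genes had 18.7% higher and 9.03% lower. Between iff-1 RNAi 15C and EV 20C, 7.43% of X-linked genes were higher and 47.4% lower. The median log2 fold change of all X-linked genes was -0.16 under iff-1 RNAi and 0.16 at 20°C, against 0.03 for autosomal genes in both. Among the pathway genes, the count of 8 under iff-1 RNAi was 4 without iff-1 RNAi 15C replicate 1 and 3 without its replicate 2; with EV 15C replicate 1, 2 or 3 left out it was 3, 5 and 4. The count of 5 at 20°C was 9, 3 and 2 with EV 20C replicate 1, 2 or 3 left out, and 1 and 2 with EV 15C replicate 1 or 2 left out.

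**Figure D5:**
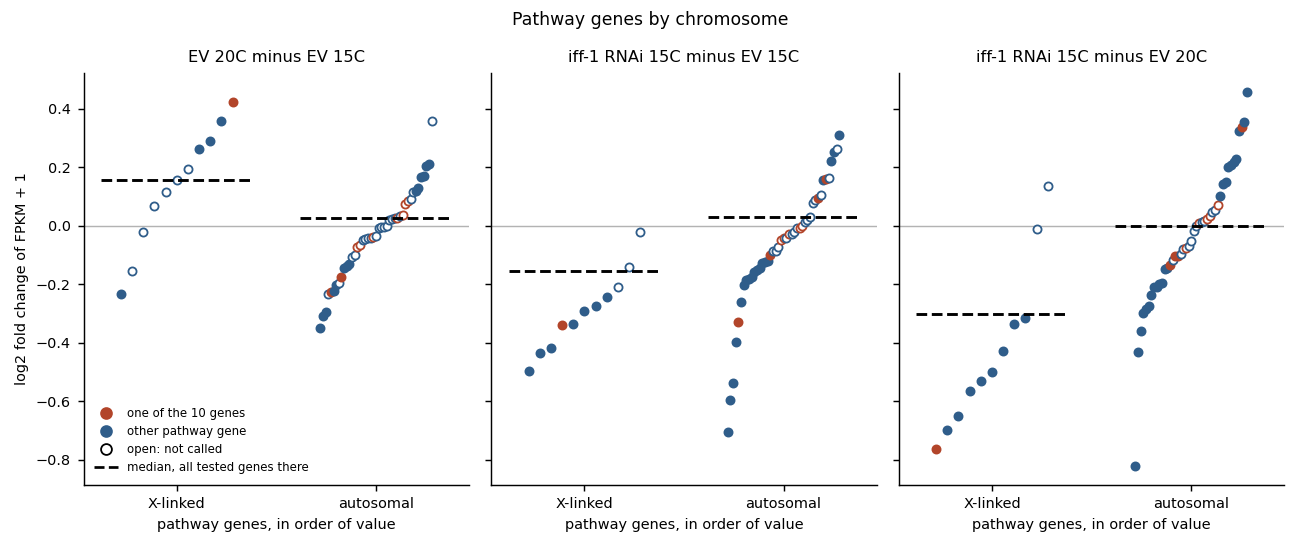
Log2 fold change of FPKM + 1 of the 54 tested pathway genes, X-linked and autosomal, in order of value; red marks the 10 enzymes, open points were not called, and dashed lines give the median of all tested genes on those chromosomes. X-linked points lie below 0 under iff-1 RNAi against EV 15C, with aco-1 at -0.34, and the highest X-linked point at 20°C is aco-1 at 0.42.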

How the data were processed

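RNA of extruded germ lines was sequenced as paired 75-nt reads from a stranded poly-A library kit, per the labels' protocols. The authors deposited 1 table of FPKM values for 46245 gene IDs in 9 libraries (3 groups of 3). CASAVA and Cufflinks are listed, without version, in the submitters' processing notes. Which aligner, build, gene annotation and strand setting were used is not given in the sources used here. FPKM is a share of each library, so a change in very abundant genes shifts all others. Symbols matched 43227 of the IDs, and 45990 are in the WBcel235 annotation (Ensembl 115), which gave positions. Depth was taken from the median of low values between 0.018 and 0.045 (FPKM times length in kb), a window that bounds the estimate. Low FPKM values were near whole multiples of 1 fragment (within 0.25) for only 77.2 to 79.7% of values, so depth is an estimate and no count test was run.

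Genes with a mean of at least 1 FPKM (8572) entered 1 limma fit (limma 3.58.1, R 4.3.3; all 9 libraries, log2(FPKM + 1), variance trend, two-sided) with Benjamini-Hochberg adjustment over all of them and a threshold of 0.05; called means past it. The moderated standard error is given as SE. All fold changes refer to log2(FPKM + 1). Ratios were compared by exact permutation tests (scipy 1.17.1, Python 3.11.15). The 10 enzymes, the 4 pathway lists and the tissue marker lists were chosen with earlier results of these data known. All 10 enzymes are named, other pathway genes only where called in at least 1 comparison, each marker list by its highest gene, and the 5 genes most like the enzyme with the smallest adjusted p. The script was tested on simulated data. The 19 alternatives per comparison changed the pseudocount, filter, scaling, variance trend, libraries fitted and replicate block, or left out 1 library. Exons of pdha-1, cts-1, aco-2, idh-1, idha-1 and fum-1 overlap a gene on the opposite strand, which at its highest had 107 FPKM (gpcp-2, beside pdha-1) and 88.0 FPKM (F43G9.13, beside idha-1); without the strand setting, reads of such pairs cannot be told apart.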

Additional observations from a re-analysis of the deposited data

How the results depend on the processing

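No value reversed sign with a call on both sides in any of the 19 alternatives; sign changes where neither value was called are not counted. The number of the 10 enzymes called under iff-1 RNAi against EV 15C was 5, and became 3 with no filter, 2 when scaled without the 10 highest genes and 3 with no variance trend. Leaving out 1 library gave 1 to 5 for that comparison, 1 to 4 at 20°C (main value 3) and 3 to 6 for iff-1 RNAi 15C against EV 20C (main value 5), where median ratio scaling gave 3. Leaving out 1 library gave 17 to 31 other pathway genes under iff-1 RNAi and 10 to 23 at 20°C, and 1514 to 2518 genes over the whole table at 20°C (main value 2401). Of X-linked pathway genes, chosen after seeing the data, 3 to 8 were called under iff-1 RNAi and 1 to 9 at 20°C when 1 library was left out, and 5 under iff-1 RNAi with no filter. The cause of these shifts was not tested. Over the whole table at 20°C the split of 1656 higher and 745 lower became 1228 and 1041 under median ratio scaling. It became 1807 and 512 with the 10 highest genes left out of the scaling and 1261 and 1021 with quantile normalization. Under any scaling, the largest shift of the median of all genes at 20°C was -0.0343 (log2), with median ratio scaling. For iff-1 RNAi 15C against EV 20C it was -0.0462, when scaled without the 10 highest genes. With 3 libraries a group, leaving out 1 library moved differences of a few percent across the threshold, and some larger ones. Under iff-1 RNAi against EV 15C, aco-1 (-22.2% of the mean) lost its call without any 1 of the libraries compared.

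Replicate numbers recur in every group, but same-numbered libraries did not deviate together (correlations of deviations between -0.19 and 0.0817), so the numbers were not treated as pairing. With the replicate number as a block, 3 of the 10 enzymes were called under iff-1 RNAi against EV 15C (mdh-1 with adjusted p = 0.0563 and mdh-2 with 0.0539 were lost), 3 at 20°C and 4 for iff-1 RNAi 15C against EV 20C. The block left 23, 16 and 29 other pathway genes and 2425, 2158 and 4051 genes over the whole table in the same order of comparisons.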

Other observations

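Breakdown of propionate and of 2-hydroxyglutarate was read from a list of 10 genes, 9 of them tested. Under iff-1 RNAi against EV 15C 1 was higher and 3 lower, and at 20°C 1 was higher and 3 lower. The dehydrogenase of D-2-hydroxyglutarate, dhgd-1, had 113, 105 and 101 FPKM in iff-1 RNAi 15C, 105, 102 and 100.1 FPKM in EV 20C, and 91.6, 91.6 and 90.5 FPKM in EV 15C. Both other groups lay above EV 15C, with log2 fold changes of 0.22 (limma adjusted p = 0.00481) under iff-1 RNAi and 0.17 (limma adjusted p = 0.0178) at 20°C, the call at 20°C being lost in 5 of 19 alternatives (highest adjusted p = 0.0836), among them leaving out any 1 EV 15C library. The propionate shunt gene alh-8, a semialdehyde dehydrogenase, had 148, 149.5 and 138 FPKM in iff-1 RNAi 15C, 120.4, 116 and 109.8 FPKM in EV 20C, and 147, 142.8 and 139.5 FPKM in EV 15C. It was lower at 20°C (log2 fold change -0.31, SE 0.04, limma adjusted p = 0.00225), a call that held in all alternatives.

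The enzyme with the smallest adjusted p against EV 15C was aco-2. The genes whose log2(FPKM + 1) followed it most closely over the 9 libraries, out of 8571, were ears-1 (Pearson r = 0.9903), gcn-1 (0.9858), cra-1 (0.9848), mat-3 (0.9822) and pas-1 (0.9809). The points share library, scaling and group, so the coefficients describe likeness of pattern. All 5 were lower than in EV 15C in every library of both other groups, as aco-2 was. They were picked for their likeness to aco-2 in these libraries, so this largely follows from the choice. Of all tested genes, 23.6% lay below EV 15C in every library under iff-1 RNAi and 16.2% at 20°C.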
